A study of Mus musculus with 12 samples.

Results

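Ccr7, S1pr1, Klf2, Cxcr4, Cd44, Itga4, Itgb1, Itgb7 and Itgal set where a T cell goes and what it holds on to, and these 9 genes of the 25700 in the RNA table were followed through RNA-seq and ATAC-seq of mouse Th2 cells. They were chosen by name, with earlier results of these data known. Each had 1 row in the table and passed the filter of a mean of at least 10 normalized counts. The samples were 3 cKO-labelled and 3 WT-labelled libraries for RNA, and 3 cKO-labelled and 3 WT-labelled libraries for ATAC-seq, which maps open chromatin by inserting a transposase. The labels call all of them T cells of mouse (Mus musculus) and Th2 cells, give the genotype as cKO or WT, and give no other agent. The title of the series names NRF2, a transcription factor encoded by Nfe2l2, and its design text refers to animal models of allergic asthma. The deleted gene, the Cre driver, the strain, the age, the time of sampling and whether replicates came from separate animals or cultures are not given in the sources used here, so the p-values below measure the spread between these libraries, which may be technical.

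Nfe2l2 had 452.8, 326.4 and 391.5 normalized counts in the cKO-labelled libraries, against 169.9, 155.3 and 147.4 in the WT-labelled libraries. The value covers the whole gene, so it does not show whether a part of it was deleted, and it does not check the labels. Every direction below therefore refers to libraries as labelled. RNA libraries summed to between 6431081 and 7372007 normalized counts. The Y-linked gene Ddx3y was listed at 0 in the 3 cKO-labelled libraries and had 140.5, 123.4 and 131.7 normalized counts in the WT-labelled libraries. Xist, which female cells transcribe, had 6284, 4331 and 7069 normalized counts in cKO-labelled libraries and 4047, 3879 and 3174 in WT-labelled libraries, so WT-labelled libraries held female and Y-linked transcripts together. The sex makeup of the source material and the genotype cannot be told apart. The 14 T cell markers were all in the table, and their sum took 0.452% to 0.493% of the normalized counts in cKO-labelled libraries and 0.457% to 0.478% in WT-labelled libraries. Gata3, the lineage factor of Th2 cells, had 589.9 to 803.3 normalized counts in cKO-labelled libraries and 687.9 to 754.8 in WT-labelled libraries. Of the Th2 cytokines, Il13 had 322, 438 and 394 normalized counts in cKO-labelled libraries, all below the 1093, 693 and 645 of WT-labelled libraries. Il9 had 6.87, 4.41 and 13.7 against 14.6, 130.3 and 89.5 in WT-labelled libraries, and Il4 and Il5 were at most 12.4 in any library. Of the Th2 receptors, Ccr8 had 293, 232 and 356 against 204, 159 and 193 in WT-labelled libraries, and Ccr4 had 709, 419 and 750 against 466, 497 and 450. The 10 Th2 markers together took 0.027% to 0.0319% of the normalized counts in cKO-labelled libraries and 0.0303% to 0.0344% in WT-labelled libraries. The part of these markers in the results below was not tested. Summed markers of B cells, the largest of the other cell types checked, took 0.0079% to 0.0142% in cKO-labelled libraries and 0.0072% to 0.0132% in WT-labelled libraries, and the ranges of all 9 marker lists overlapped between the groups. The RNA table held only 2 of 8 neutrophil markers, 4 of 9 of eosinophils, basophils and mast cells, and 1 of 6 erythroid markers. The sums of those lists therefore say little about such cells.

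Leukocytes leave blood in steps: selectins slow the cell, a chemokine receptor signals, integrins tighten onto their ligands and the cell crosses the vessel wall. CCR7 guides T cells to lymph nodes and through them, and S1PR1, the receptor for sphingosine 1-phosphate, lets them out again. KLF2 is a zinc finger transcription factor that drives S1pr1 and the L-selectin gene in resting T cells and is switched off after activation, while CD44, the hyaluronan receptor, marks T cells that have met antigen. Integrins work as pairs of an alpha and a beta chain: αL with β2 forms LFA-1, which binds ICAM-1, α4 with β1 forms VLA-4, which binds VCAM-1, and α4 with β7 binds MAdCAM-1 on gut vessels.

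Promoter windows of 300 bases, from 250 before to 50 after the start of the gene, were found for 6 of the 9 genes in the RefSeq table (GRCm38.p6, the assembly called mm10), and all 6 lay inside a region of open chromatin with a peak in all 6 ATAC lists. Of these, 4 are shown because the open chromatin results below turn on them: Klf2 and Itgb1, whose start regions were not called after quantile normalization, Itga4, whose start region was, and Cd44, where the called regions lay inside the gene. Each reads 5′ to 3′ along the gene's own strand. Capitals mark CACCC, the core bound by KLF factors, or its reverse complement GGGTG, and TGACNNNGC, the core of the antioxidant response element bound by NRF2, on either strand. No occurrence of one motif overlapped the other.
Klf2, chr8:72318812-72319111, plus strand: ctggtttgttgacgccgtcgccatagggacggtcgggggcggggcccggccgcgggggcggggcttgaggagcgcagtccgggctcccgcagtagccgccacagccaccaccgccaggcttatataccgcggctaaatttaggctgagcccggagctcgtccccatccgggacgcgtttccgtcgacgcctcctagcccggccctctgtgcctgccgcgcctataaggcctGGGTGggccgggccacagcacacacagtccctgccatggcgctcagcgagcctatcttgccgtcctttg
Itgb1, chr8:128685404-128685703, plus strand: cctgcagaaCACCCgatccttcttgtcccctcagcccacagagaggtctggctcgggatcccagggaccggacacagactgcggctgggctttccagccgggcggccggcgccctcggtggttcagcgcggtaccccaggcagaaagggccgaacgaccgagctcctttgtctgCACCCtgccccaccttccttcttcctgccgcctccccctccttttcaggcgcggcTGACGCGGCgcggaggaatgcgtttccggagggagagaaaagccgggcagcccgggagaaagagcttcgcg
Itga4, chr2:79255176-79255475, plus strand: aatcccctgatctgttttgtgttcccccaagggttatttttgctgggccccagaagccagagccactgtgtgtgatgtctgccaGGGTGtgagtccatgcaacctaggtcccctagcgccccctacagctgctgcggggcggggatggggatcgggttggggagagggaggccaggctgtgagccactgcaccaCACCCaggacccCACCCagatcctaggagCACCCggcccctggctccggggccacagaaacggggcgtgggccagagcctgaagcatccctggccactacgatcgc
Cd44, chr2:102901616-102901915, minus strand: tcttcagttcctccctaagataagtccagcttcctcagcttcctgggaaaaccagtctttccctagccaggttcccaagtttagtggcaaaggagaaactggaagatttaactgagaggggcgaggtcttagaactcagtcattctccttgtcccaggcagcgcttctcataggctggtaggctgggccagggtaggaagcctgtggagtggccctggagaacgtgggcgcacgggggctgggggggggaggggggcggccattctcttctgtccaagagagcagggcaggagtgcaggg
CACCC occurred once in the Klf2 window, 2 times in Itgb1, 4 times in Itga4 and in no place in Cd44. Of the pair not shown, Cxcr4 held 1 and Itgb7 held 4, in a window whose start site lies 1470 bp inside the gene span used for the ATAC distances. Of all 32851 promoter windows of this length, 57.5% held at least 1 CACCC, so 5 of 6 is a description of a common motif. The antioxidant response element core was present once, in the Itgb1 window, and 12.4% of all windows held it. A match is not a binding site, and no match says only that these letters are not in the window.

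None of the 9 genes passed the test between cKO-labelled and WT-labelled libraries (limma with Benjamini-Hochberg adjustment over 18074 genes, adjusted p under 0.05), where 0.205% of all tested genes did, 0.0332% higher and 0.172% lower. Of the 9, 8 had a higher fitted mean in cKO-labelled libraries, beside 55.0% of all tested genes, and 1, Itgb7, had a lower one. The median log2 change of the 9 was 0.33, beside 0.06 over all tested genes. An unadjusted p under 0.05 was reached by 1 of 9, Ccr7, against 12.1% of all genes. The libraries of the groups did not overlap for 2 of 9, Ccr7 and Itgb7, against 17.2% of all genes. In the authors' deposited table, 6 of the 9 have an adjusted p and none is under 0.05, where 5.68% of the 9263 genes with one are.

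**Figure D1:**
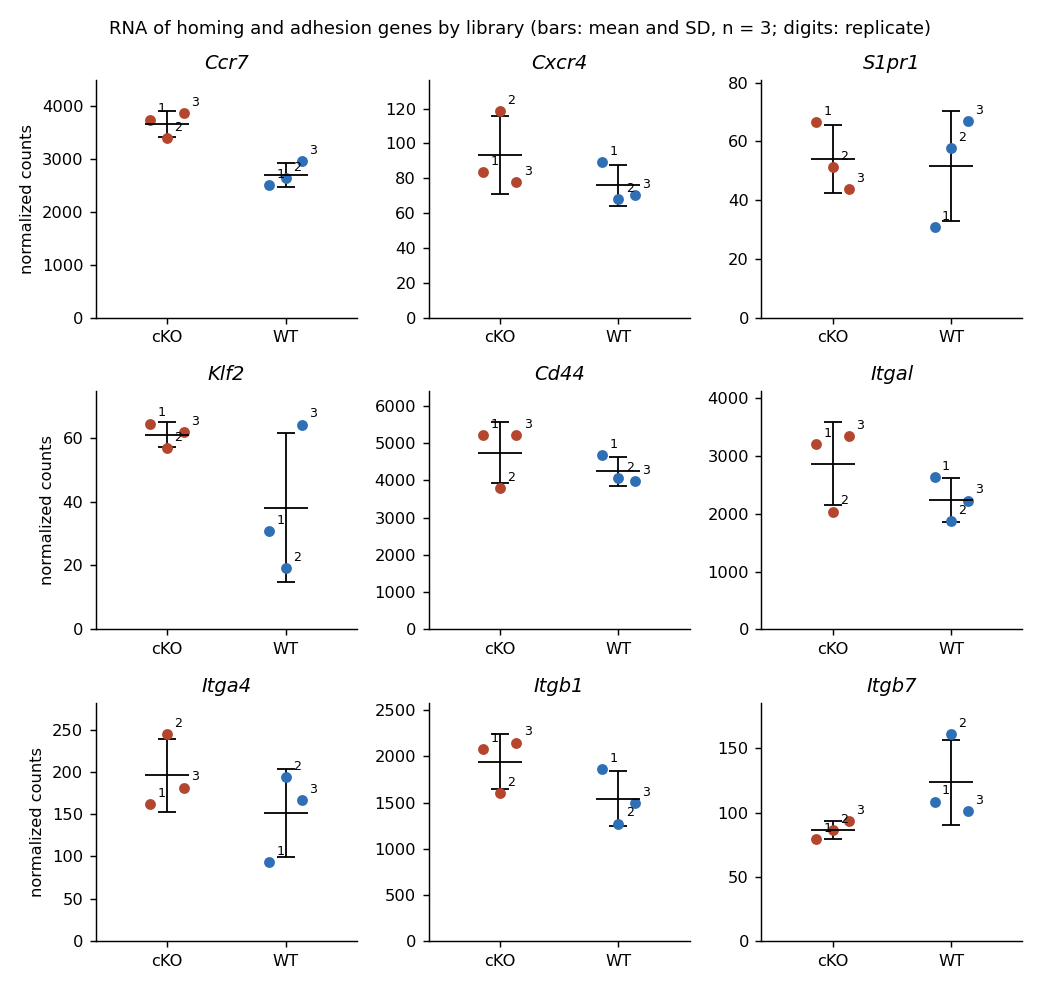
Normalized counts per library (vertical axes, linear, 1 panel a gene with its own scale) for the 9 genes in 3 cKO-labelled libraries on the left and 3 WT-labelled libraries on the right of each panel. Points are libraries, and the line with its bar is the mean ± SD; Ccr7 and Itgb7 are the genes whose groups do not overlap.

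Ccr7 (ENSMUSG00000037944, chr11:99144199-99155077 in mm10) had 3749, 3394 and 3870 normalized counts in cKO-labelled libraries, against 2516, 2642 and 2960 in WT-labelled libraries. Every cKO-labelled library lay above every WT-labelled one, which 7.40% of all tested genes also showed in this direction. The fitted change was 1.36-fold, with a 95% interval from 1.11 to 1.66, on the scale of log2 of the value plus 1 (log2 change 0.44, SE 0.13), and its adjusted p was 0.194. The authors' deposited table gives an adjusted p of 0.0602 for Ccr7. When each library was weighted by its estimated quality, Ccr7 passed with an adjusted p of 0.0178, but in that fit 9.86% of all genes were called and 1 library, cKO replicate 1, carried a weight of 7.43 beside 0.437 to 1.12 for the others.

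Cxcr4 (ENSMUSG00000045382, chr1:128588199-128592299, minus strand), the receptor for CXCL12, had 83.6, 118.7 and 77.7 normalized counts in cKO-labelled libraries and 89.3, 67.9 and 70.4 in WT-labelled libraries. The groups overlapped, and a single high library, cKO replicate 2, stood apart from the rest. The fit gave a log2 change of 0.28 (SE 0.32, adjusted p = 0.765), with an interval from -0.40 to 0.97, and 0.096 without cKO replicate 2.

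S1pr1 (ENSMUSG00000045092, chr3:115710433-115715055) had 66.7, 51.4 and 43.8 normalized counts in cKO-labelled libraries and 30.8, 57.6 and 66.8 in WT-labelled libraries. The groups covered much the same range. Their log2 change was 0.11 (SE 0.41, adjusted p = 0.942), its interval ran from -0.77 to 0.99, and the estimate turned to -0.22 without WT replicate 1 and to -0.05 without cKO replicate 1.

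Klf2 (ENSMUSG00000055148, chr8:72319062-72321654, plus strand) had 64.4, 56.7 and 61.6 normalized counts in cKO-labelled libraries and 30.8, 19.2 and 64.1 in WT-labelled libraries. The cKO-labelled libraries lay close together, and WT replicate 3 reached their level while the other WT-labelled libraries were lower. The log2 change was 0.83 (SE 0.46, adjusted p = 0.497), and its interval in fold terms reached from 0.894 to 3.54. It was 0.44 without WT replicate 2 and 1.29 without WT replicate 3, and neither fit passed the threshold. The 5 genes with the pattern most like that of Klf2 over the 6 RNA libraries, by the Pearson correlation of log2 values, were Ccdc157 (r = 0.996), R3hdm4 (0.994), Ghdc (0.988), Tle4 (0.988) and Fmr1 (0.984). They are given as a description: 119 of 11936 genes compared had r over 0.9 with Klf2, and none of the other 8 genes followed here was among the 5.

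Cd44 (ENSMUSG00000005087, chr2:102811141-102901669, minus strand) had 5216, 3804 and 5214 normalized counts in cKO-labelled libraries and 4685, 4066 and 3978 in WT-labelled libraries. The groups overlapped, with cKO replicate 2 the lowest of all 6 libraries. The ratio was 1.11-fold with an interval from 0.883 to 1.39 (adjusted p = 0.738).

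Itgal (ENSMUSG00000030830, chr7:127296139-127335137), the αL chain of LFA-1, had 3200, 2038 and 3348 normalized counts in cKO-labelled libraries and 2627, 1868 and 2226 in WT-labelled libraries. In both groups replicate 2 was the lowest, and cKO replicate 2 lay among the WT-labelled values. The log2 change was 0.33 (SE 0.20, adjusted p = 0.533). Itgb1 (ENSMUSG00000025809, chr8:128685654-128733579, plus strand), the β1 chain, had 2083, 1602 and 2150 normalized counts in cKO-labelled libraries and 1860, 1272 and 1495 in WT-labelled libraries. Its groups overlapped as well, through cKO replicate 2 and WT replicate 1. Its log2 change was 0.34 (SE 0.18, adjusted p = 0.478). With the quality weights described for Ccr7, Itgb1 (adjusted p = 0.0445) and Itgal (0.0351) passed the threshold too.

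Itga4 (ENSMUSG00000027009, chr2:79255426-79333114, plus strand), the α4 chain, had 161.9, 244.9 and 181.3 normalized counts in cKO-labelled libraries and 93.1, 193.9 and 166.6 in WT-labelled libraries. The groups overlapped widely, and WT replicate 1 was the lowest library. Its log2 change was 0.42 (SE 0.31, adjusted p = 0.626), and with 1 library left out it ran from 0.10, without WT replicate 1, to 0.63, without WT replicate 2. Itgb7 (ENSMUSG00000001281, chr15:102215994-102233405, minus strand), the β7 chain, had 79.2, 86.6 and 93.2 normalized counts in cKO-labelled libraries and 108.5, 161.3 and 101.0 in WT-labelled libraries. All 3 cKO-labelled libraries lay below the WT-labelled ones, by a narrow gap between cKO replicate 3 and WT replicate 3. Its log2 change was -0.48 (SE 0.30, adjusted p = 0.55), with an interval from -1.13 to 0.16, so a change of either sign remains within it.

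The libraries did not order the genes alike: among the cKO-labelled libraries, replicate 2 was the lowest for 5 of the 9 genes and the highest for 2, Cxcr4 and Itga4. In bulk RNA, fewer cells that carry a transcript and less of it per cell cannot be told apart. Levels are not compared between genes, since no transcript lengths were used.

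**Figure D2:**
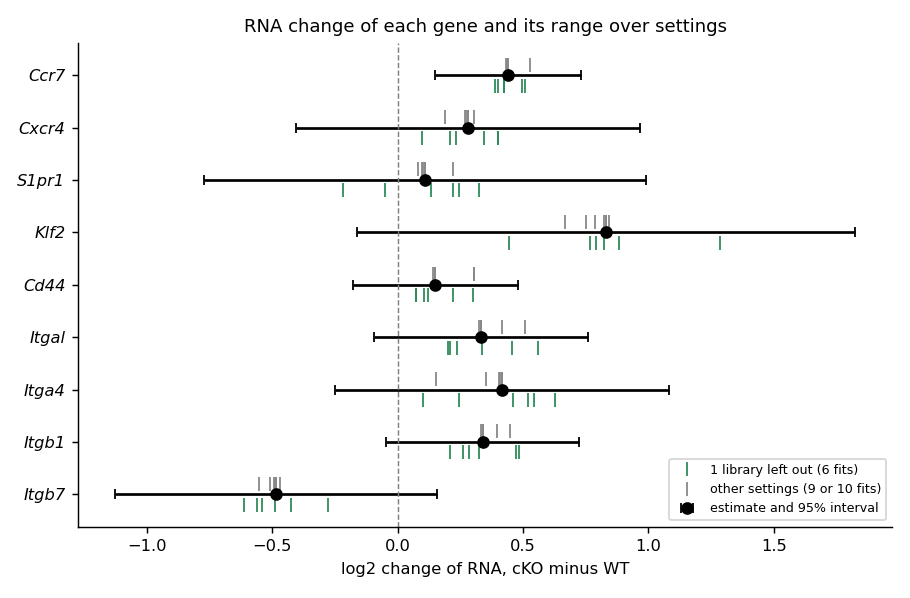
Log2 change of RNA, cKO-labelled minus WT-labelled, for the 9 genes (horizontal axis, log2 units), with the 95% interval of the limma fit and smaller marks for other settings and for fits with 1 library left out. Of the 9 intervals, the one for Ccr7 lies wholly above 0 (0.15 to 0.73), and the marks for S1pr1 spread to both sides of 0.

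Other genes of trafficking and adhesion were read from 7 lists with 188 genes, of which 166 were tested. None of the 166 passed the test in either direction, where 0.205% of all genes did. Their median log2 change was 0.15, beside 0.06 over all genes, and 111 estimates (66.9%) were positive and 55 negative, beside 55.0% positive over all genes. An unadjusted p under 0.05 was reached by 25 (15.1%, beside 12.1%), and 28 had groups that did not overlap (16.9%, beside 17.2%). The lists were chosen with earlier results of these data known, so these shares describe the lists and are not independent support. Genes are named below as the 3 with the smallest p of each list.

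Of 13 tested chemokine receptors besides Ccr7 and Cxcr4, 6 estimates were positive and 7 negative, with a median log2 change of -0.19. Ccr8, a receptor of Th2 cells, had 293, 232 and 356 normalized counts in cKO-labelled libraries and 204, 159 and 193 in WT-labelled libraries (log2 change 0.65, adjusted p = 0.295), without overlap. Ccr4, another Th2 receptor, had 709, 419 and 750 against 466, 497 and 450 in WT-labelled libraries (0.37, adjusted p = 0.554), with cKO replicate 2 below all WT-labelled values. Cxcr5, which guides cells to B cell follicles, was near the low end of the filter, with means of 23.8 in cKO-labelled and 10.2 in WT-labelled libraries (adjusted p = 0.519).

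Among 24 tested genes of egress and of lipid and oxysterol guidance, 15 estimates were positive and 9 negative, with a median of 0.26. Sgpl1, the lyase that breaks down sphingosine 1-phosphate, had 538, 380 and 622 normalized counts in cKO-labelled libraries, all above the 379, 272 and 291 of the WT-labelled ones (log2 change 0.69, adjusted p = 0.241). Ptger2, a prostaglandin E2 receptor, had a change of 0.59 (adjusted p = 0.306) and Gnai2, the G protein subunit through which chemokine receptors signal, one of 0.41 (adjusted p = 0.311).

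The other 16 tested integrin subunits split evenly, 8 positive and 8 negative, with a median of -0.01. Itgb3, the β3 chain, had 69.9, 78.9 and 84.2 normalized counts in cKO-labelled libraries against 45.8, 37.1 and 50.5 in WT-labelled libraries (log2 change 0.80, adjusted p = 0.373). Its partner Itgav, the αV chain, had 347, 436 and 274 against 419, 551 and 655 in WT-labelled libraries (-0.62, adjusted p = 0.303). So the estimates of the 2 chains of αVβ3 had opposite signs, and neither passed the test. Itga5, the α5 chain of a fibronectin receptor, had a change of 0.62 (adjusted p = 0.458).

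Of 41 tested genes of integrin activation and the cytoskeleton, 29 estimates were positive and 12 negative, with a median of 0.17. Filip1l had 301, 179 and 334 normalized counts in cKO-labelled libraries and 140, 128 and 97 in WT-labelled libraries (log2 change 1.12, adjusted p = 0.128). Ezr, which links membrane proteins to actin, had 1277, 1074 and 1411 against 1064, 533 and 772 in WT-labelled libraries (0.71, adjusted p = 0.222). Fyb, the adaptor ADAP that couples the T cell receptor to integrins, had 745, 922 and 643 against 1140, 1064 and 1561 in WT-labelled libraries (-0.70, adjusted p = 0.16). In all 3 genes the groups did not overlap, as in 6 of the 41 of the list and 17.2% of all genes.

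Of 19 tested selectin genes, their ligands and the enzymes that build them, 15 estimates were positive and 4 negative, with a median of 0.18. Fut4, a fucosyltransferase for selectin ligands, was scarce, at 2.5, 3.5 and 8.4 normalized counts in cKO-labelled libraries and 19.9, 12.8 and 25.2 in WT-labelled libraries (log2 change -1.89, adjusted p = 0.355). Adam10, a sheddase, had a change of 0.36 (adjusted p = 0.448) and B4galt1, a galactosyltransferase, one of 0.34 (adjusted p = 0.483).

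Of 28 tested immunoglobulin superfamily and other adhesion genes, 17 estimates were positive and 11 negative, with a median of 0.06. Icam1, the ligand of LFA-1, had 1594, 1378 and 1745 normalized counts in cKO-labelled libraries and 1141, 931 and 933 in WT-labelled libraries (log2 change 0.65, adjusted p = 0.119). Cd47, the ligand of SIRPα, had 761, 797 and 714 against 1220, 1139 and 1172 in WT-labelled libraries (-0.64, adjusted p = 0.112). Crtam, an adhesion receptor of activated T cells, had 128, 132 and 102 against 211, 185 and 273 in WT-labelled libraries (-0.87, adjusted p = 0.183). None of these groups overlapped, with Icam1 higher in cKO-labelled libraries and the other two lower; over the list this held for 7 of 28, beside 17.2% of all genes.

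Of 27 tested genes of the FOXO1 and KLF programme, which keeps T cells in a resting, recirculating state, 22 estimates were positive and 5 negative, with a median of 0.18. Map3k3, the kinase MEKK3, which acts upstream of Klf2 in endothelial cells of mouse, had 334, 175 and 369 normalized counts in cKO-labelled libraries and 149, 140 and 168 in WT-labelled libraries (log2 change 0.87, adjusted p = 0.24). Mef2a, a transcription factor downstream of that kinase, had 606, 568 and 585 against 434, 407 and 379 in WT-labelled libraries (0.53, adjusted p = 0.24). Both were higher in every cKO-labelled library. Nod1, an intracellular sensor of bacterial cell wall, had means of 36.8 in cKO-labelled and 12.0 in WT-labelled libraries (1.73, adjusted p = 0.305).

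In the authors' deposited table, 6 of the 181 list genes it holds have an adjusted p under 0.05. Some of the 181 have no adjusted p, so this count is not directly comparable with the 5.68% over all genes with one. Higher in cKO in the authors' deposited table were Filip1l (adjusted p = 0.00873), Icam1 (0.0112) and Map3k3 (0.0421). Lower in the authors' deposited table were Cd47 (0.00553), Fyb (0.0239) and Crtam (0.0370). Without cKO replicate 2 the limma fit called 2, Filip1l (log2 change 1.39, adjusted p = 0.0438) and Map3k3 (1.20, adjusted p = 0.0466), where 0.830% of all genes were called.

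In ATAC-seq, peaks of the 6 libraries that shared at least 1 bp were merged into 114463 regions, and a region counted as belonging to a gene when it lay within 1 kb of the gene's span. Values are tags per 10000000, as the authors scaled them, summed over a library's peaks in the region. The 9 genes had 48 regions, and 20 of them, each with a peak in all 6 lists, were tested. Of the 20, 6 were lower in cKO-labelled libraries and 0 higher after quantile normalization (limma, adjusted p under 0.05), where 14.1% of all 33531 regions were called, 7.33% lower and 6.81% higher. Without WT replicate 2, whose peaks held 25.2% of its tags beside 34.9% to 38.3% in the other 5 libraries, the count was again 6, where 13.0% of all regions were called. Leaving out a cKO-labelled library lowered the count and that over all regions alike, to 2 for replicate 1 (6.70% of all regions), to 3 for replicate 2 (6.63%) and to 1 for replicate 3 (5.27%).

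How the libraries were set on one scale decided the sign at most gene starts. Over all 33531 regions, the share of calls that were higher in cKO was 48.1% after quantile normalization, 81.7% after subtraction of each library's median, 18.5% in the tags as deposited and 48.2% after cyclic loess. The median change over these regions was 0.02, 0.15, -0.14 and 0.01 on the log2 scale under the 4 scalings in that order. For the regions of these genes the median-subtracted fit called 11, where 35.9% of all regions were called, and the deposited tags gave 3, where 12.7% were. Of the 11, those inside Cd44 were lower in cKO-labelled libraries, and the others, at gene ends or over Klf2, were higher. The 3 were all lower and lay inside Cd44.

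**Figure D3:**
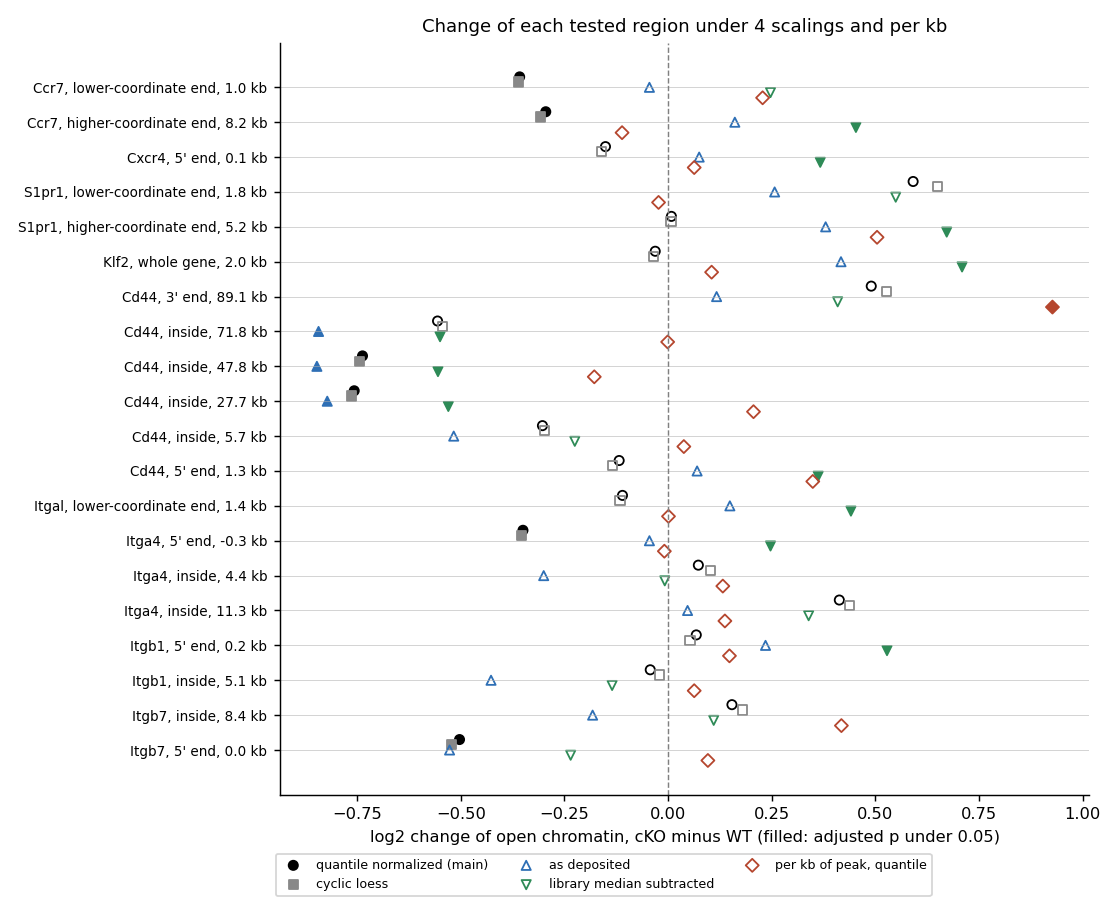
Log2 change of ATAC signal, cKO-labelled minus WT-labelled, at the 20 tested regions of the 9 genes (horizontal axis, log2 units) under 4 scalings and per kb of peak, with filled marks where the adjusted p is under 0.05. At the gene ends of Ccr7, Cxcr4, Klf2, Cd44 (5′ end), Itgal and Itga4 the 4 scalings fall on both sides of 0, and at 4 regions inside Cd44 all 4 lie below 0.

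The Klf2 gene is short and was covered by 1 region, chr8:72318327-72323808, with 346.3, 340.4 and 377.2 tags in cKO-labelled libraries and 331.7, 195.9 and 286.5 in WT-labelled libraries. The 3 cKO-labelled values were the highest, and WT replicate 2 was far below the rest. The log2 change was -0.03 after quantile normalization (SE 0.07, adjusted p = 0.788) and 0.71 after median subtraction (adjusted p = 7e-06), so its direction depended on the scaling. The Itgb1 start region, chr8:128684856-128686818, had 125.9, 121.6 and 129.3 tags in cKO-labelled libraries and 126.8, 84.0 and 113.4 in WT-labelled libraries. Here too WT replicate 2 was the lowest. Its log2 change was 0.07 (SE 0.10, adjusted p = 0.673) after quantile normalization and 0.53 (adjusted p = 0.00044) after median subtraction. A region inside Itgb1, chr8:128690239-128691221, was not called (adjusted p = 0.935).

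The Itga4 start region, chr2:79252841-79257386, had 175.2, 172.0 and 170.7 tags in cKO-labelled libraries and 190.2, 146.2 and 203.1 in WT-labelled libraries. The cKO-labelled libraries were nearly equal and lay between the WT-labelled ones. The region was called lower after quantile normalization (log2 change -0.35, SE 0.09, adjusted p = 0.0156) and higher after median subtraction (0.25, adjusted p = 0.0465), and the change was -0.04 as deposited. Of the other Itga4 regions, chr2:79259114-79260536 (adjusted p = 0.909) and chr2:79266414-79267137 (0.3) were not called.

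Ccr7 was covered by a pair of regions. The one over the higher-coordinate end, chr11:99148918-99155829, had 343.2, 360.4 and 334.2 tags in cKO-labelled libraries and 334.0, 265.5 and 333.0 in WT-labelled libraries. As deposited, the cKO-labelled values lay just above the WT-labelled ones, yet the region was called lower after quantile normalization (log2 change -0.29, SE 0.08, adjusted p = 0.0267) and higher after median subtraction (0.45, adjusted p = 0.00026). The neighbour, chr11:99141559-99148820, had 178.7, 186.1 and 166.2 tags in cKO-labelled libraries and 193.2, 141.9 and 221.5 in WT-labelled libraries. Its groups overlapped, and its change was -0.36 (adjusted p = 0.0157) after quantile normalization and 0.25 (adjusted p = 0.0582) after median subtraction. No direction of open chromatin at Ccr7 can be given from these lists.

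The S1pr1 region chr3:115713868-115717379 had 252.8, 253.8 and 257.0 tags in cKO-labelled libraries and 236.7, 155.2 and 203.1 in WT-labelled libraries. The cKO-labelled libraries were again nearly equal and above the rest, and the change was 0.01 (SE 0.07, adjusted p = 0.954) after quantile normalization and 0.67 (adjusted p = 6e-06) after median subtraction. Its neighbour chr3:115711252-115713313 had 31.7, 18.9 and 33.1 tags against 42.3, 9.28 and 28.2 in WT-labelled libraries and was not called (adjusted p = 0.257). The Cxcr4 start, chr1:128590548-128593758, had 139.3, 147.8 and 133.1 tags in cKO-labelled libraries and 144.6, 109.7 and 147.6 in WT-labelled libraries. Its change was -0.15 (adjusted p = 0.291) after quantile normalization and 0.37 (adjusted p = 0.00558) after median subtraction. The Itgal region, chr7:127295926-127299095, had 175.2, 149.2 and 152.5 tags in cKO-labelled libraries and 167.6, 109.1 and 159.6 in WT-labelled libraries, with changes of -0.11 (adjusted p = 0.43) and 0.44 (adjusted p = 0.00196) in the same order of scalings. At these 3 genes the sign or the call thus rested on the scaling.

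The Itgb7 start, chr15:102230500-102236372, had 56.6, 48.5 and 67.7 tags in cKO-labelled libraries and 86.8, 59.2 and 110.0 in WT-labelled libraries. The lowest WT-labelled library, WT replicate 2, lay within the cKO-labelled range. The log2 change was -0.50 after quantile normalization (SE 0.16, adjusted p = 0.0455) and -0.52 after cyclic loess (adjusted p = 0.0278). The change was -0.24 after median subtraction (adjusted p = 0.276) and -0.53 as deposited (adjusted p = 0.11). The sign thus held under the 4 scalings, and the call held only after quantile normalization and cyclic loess. Peaks covered 3.06 ± 0.26 kb of it in cKO-labelled and 4.24 ± 0.96 kb in WT-labelled libraries (SD, n = 3 each), and per kb of peak the change was 0.10 (adjusted p = 0.762). Inside the gene, chr15:102224114-102225823 was not called (adjusted p = 0.733).

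Cd44 spans 90.5 kb and held 21 of the 48 regions. The start region, chr2:102898393-102902353, which holds the promoter window shown above, had 143.1, 127.5 and 111.8 tags in cKO-labelled libraries and 146.1, 92.5 and 130.3 in WT-labelled libraries. The groups overlapped, and the change was -0.12 (SE 0.10, adjusted p = 0.464) after quantile normalization and 0.36 (adjusted p = 0.0139) after median subtraction. The region at the other end, chr2:102811743-102813423, was not called on summed tags (log2 change 0.49, adjusted p = 0.282) and was called higher per kb of peak (0.93, adjusted p = 0.0247), where 2.48% of all regions were called.

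Inside Cd44, 4 regions had a peak in all 6 lists, and in all 4 the deposited tags of the groups did not overlap, with cKO lower. Deposited tags of the groups did not overlap at 35.8% of all tested regions, and at 22.0% with cKO lower. The region chr2:102870232-102877752, centred 27.7 kb from the start of the gene, had 54.5, 46.8 and 35.4 tags in cKO-labelled libraries and 109.1, 60.0 and 78.4 in WT-labelled libraries. It fell by 0.76 on the log2 scale after quantile normalization (SE 0.16, adjusted p = 0.00775), and was called lower under each of the 4 scalings, but not by the height of its highest peak (-0.73, adjusted p = 0.0815). The region chr2:102852854-102854978, centred 47.8 kb from the start, had 37.9, 54.1 and 30.8 tags in cKO-labelled libraries and 87.2, 58.1 and 75.1 in WT-labelled libraries. It fell by 0.74 (SE 0.17, adjusted p = 0.0104) and was also called lower under each of the 4 scalings, which held for 3.39% of all tested regions, while 1.97% were called higher under each and none of these genes' regions was. It missed the threshold without cKO replicate 3 (log2 change -0.59, adjusted p = 0.061). Fitted without the mean-variance trend, where 3.50% of all regions were called, both missed it (adjusted p = 0.0642 at 27.7 kb and 0.0644 at 47.8 kb).

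The region chr2:102827772-102832061, centred 71.8 kb from the start, had 24.5, 22.9 and 26.6 tags in cKO-labelled libraries and 43.8, 36.3 and 57.1 in WT-labelled libraries. Its change of -0.56 did not pass after quantile normalization (SE 0.20, adjusted p = 0.0748) and passed in the tags as deposited (-0.84, adjusted p = 0.0279) and after median subtraction (-0.55, adjusted p = 0.0377). The region chr2:102894513-102897445, centred 5.7 kb from the start, had 31.0, 32.4 and 38.4 tags in cKO-labelled libraries and 41.1, 50.2 and 56.3 in WT-labelled libraries, and it did not pass (-0.30, adjusted p = 0.362).

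**Figure D4:**
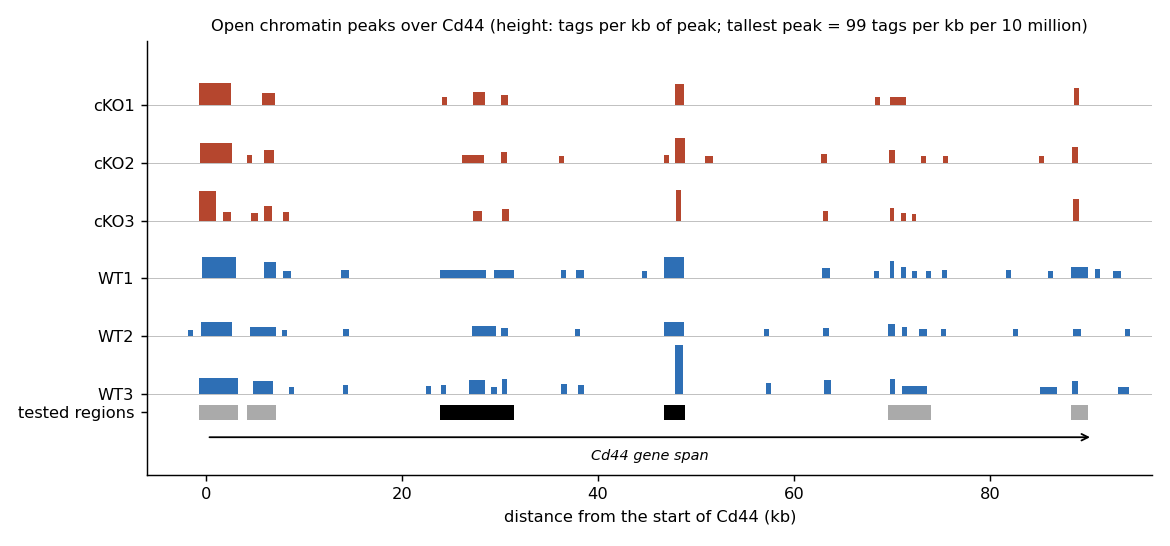
Peaks along the Cd44 gene in the 6 ATAC lists (3 cKO-labelled rows above 3 WT-labelled rows), with the distance from the start of the gene in kb on the horizontal axis and each peak drawn at its called width with its height in tags per kb; black bars mark the tested regions called lower and grey bars the others. The peak at the start is present in every row, and the interior is more sparsely filled in the cKO-labelled rows, with 5, 9 and 6 of 18 inner regions holding a peak beside 14, 11 and 12 in the WT-labelled rows. The inner regions are those with a peak in any of the 6 lists.

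Of the 18 regions inside the gene, 5, 9 and 6 held a peak in the cKO-labelled lists, and 14, 11 and 12 in the WT-labelled lists. Summed over them, cKO-labelled libraries had 155.5, 198.2 and 151.8 tags and WT-labelled libraries 385.0, 259.7 and 368.3. The called length followed the tags: peaks covered 6.74, 9.84 and 6.45 kb in cKO-labelled and 18.3, 13.6 and 14.9 kb in WT-labelled libraries. Per kb of called peak the groups overlapped, with 23.1, 20.1 and 23.5 tags in cKO-labelled and 21.0, 19.1 and 24.8 in WT-labelled libraries. The groups thus stood apart in summed tags and in called length, and overlapped in tags per kb. The 18 regions come from the peaks of all 6 lists, so a region listed in 1 genotype alone adds 0 to the other. Of the 21 Cd44 regions, 8 were in WT-labelled lists only and 1 in cKO-labelled lists only. The sums were chosen after their values were seen and are a description. In the fit per kb of peak, the pair of regions that had fallen changed by 0.21 (adjusted p = 0.53) at 27.7 kb and by -0.18 (adjusted p = 0.785) at 47.8 kb. On average the lists covered less of the whole genome in cKO-labelled libraries, with 52.9, 63.5 and 52.9 Mb, beside 74.4, 63.2 and 64.1 Mb in WT-labelled libraries. The groups overlapped, since cKO replicate 2 covered slightly more than WT replicate 2. The part of this covered length in the Cd44 result was not tested.

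**Figure D5:**
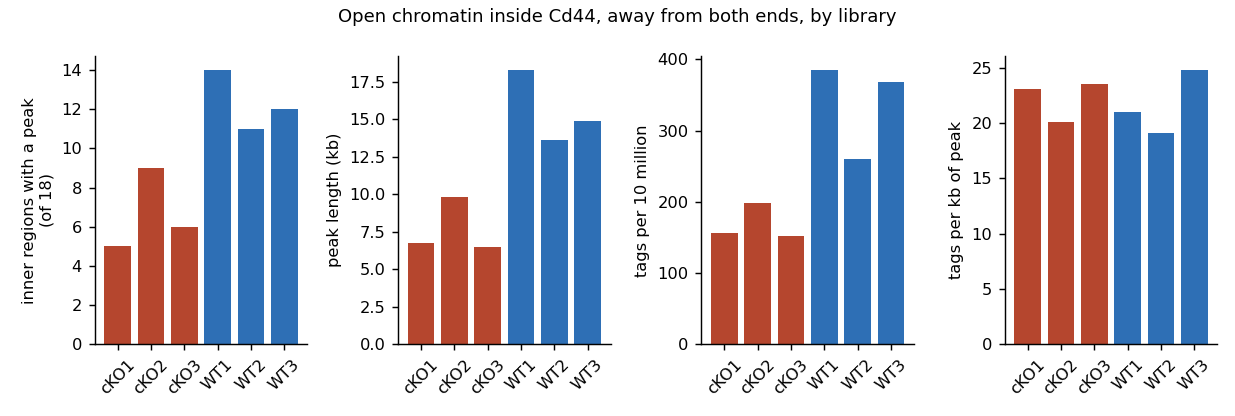
The 18 regions inside Cd44 summed per library: tags per 10000000, covered kb and tags per kb of peak (vertical axes from 0), with 3 cKO-labelled libraries left of 3 WT-labelled libraries. Tags and covered length are lower in each cKO-labelled library, and tags per kb lie between 19.1 and 24.8 in both groups. A region without a peak in a library adds 0 to its tags and length.

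Peaks in all 3 WT-labelled lists and in no cKO-labelled list were found in 2 of the 48 regions, both inside Cd44, where 2.48% of all merged regions showed this. At chr2:102863126-102863980 the WT-labelled libraries had 13.6, 7.64 and 11.6 tags, and at chr2:102887063-102887901 they had 14.0, 9.55 and 9.39. The weakest peaks listed had 5.08 to 6.01 tags, depending on the library. No region of the 9 genes was in all 3 cKO-labelled lists and no WT-labelled list, against 0.280% of all regions. In at least 1 cKO-labelled list and no WT-labelled list were 5 of the 48 regions (21.7% of all merged regions), and in at least 1 WT-labelled list and no cKO-labelled list 13 (27.4%). For Cd44 these counts were 1 and 8 of 21.

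Farther out, from 1 to 100 kb of the gene spans, Cd44 had 21 tested regions, of which 1 was higher and 5 lower after quantile normalization, where 6.81% of all regions were higher and 7.33% lower. Under all 4 scalings 3 of the 5 were lower and none was higher. Another of the 5, chr2:102978955-102982461, had 256.6, 272.4 and 294.3 tags in cKO-labelled libraries and 288.0, 187.7 and 289.1 in WT-labelled libraries, so its deposited tags were not lower on average. The most changed, chr2:102956473-102960500, lay 54804 bp outside the span on the side of the start and had 79.0, 92.2 and 73.4 tags in cKO-labelled libraries and 169.5, 137.0 and 151.3 in WT-labelled libraries. It fell by 1.07 on the log2 scale (adjusted p = 9.93e-05), and such a region may belong to another gene. Around Itgb7 4 of 16 were higher and none lower (2 higher under all 4 scalings), around Itgal 3 of 23 higher and 1 lower (1 in each direction under all 4), beside the same shares of all regions, and around the other genes at most 1 in a direction.

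RNA and open chromatin can be set side by side for Cd44, although they come from separate libraries. Its RNA ratio had an interval from 0.883 to 1.39, while both of its called inner regions had fewer tags in every cKO-labelled library. Per kb of peak these regions changed by 0.21 (27.7 kb) and -0.18 (47.8 kb), and neither was called. For Itgb7 the RNA values and the tags at the start were both lower on average in cKO-labelled libraries. The RNA estimate was negative under every alternative run and passed the threshold in none, while the change at the start turned to 0.10 per kb of peak. For Ccr7, RNA was higher in every cKO-labelled library, and the tags at the gene had a direction that depended on the scaling.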

How the data were processed

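The submitters' processing notes name HOMER 4.11, Bowtie2 2.3.5.1, RSEM 1.3.3, STAR, edgeR, DESeq2 and the mm10 build, without their roles. RNA values were deposited as a signal, the authors' normalized counts, which are not whole numbers, so no count model was run and raw depth is unknown. The table's log2 fold change, p-value and adjusted p were computed by the authors. Per the file headers, each ATAC file is a HOMER peak list of 1 library, called at a Poisson p-value of 0.001 with at most 1 tag per bp. Its tag counts are a signal that the authors brought to 10000000 tags per library. The deposited peak score and clonal fold ratio were not used. Total tags were 13149952 to 18327127 and peaks numbered 54133 to 75017 per library. With 3 libraries a group, the spread between libraries limits the precision.

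Genes with a mean of at least 10 were fitted with limma (version 3.58.1, R version 4.3.3) on the log2 scale after adding 1, cKO minus WT, using eBayes with its trend option, Benjamini-Hochberg adjustment at 0.05 and no replicate block. The added value draws fold changes of low genes toward 1: the log2 change of Klf2 was 0.84 with 0.5 added and 0.75 with 5 added. A fitted fold can still exceed the ratio of group means, as for Klf2 (1.78 beside 1.60). Overlapping peaks (1 bp or more) of the 6 lists were merged in Python 3.11.15. Regions in all 6 lists were fitted likewise on summed tags plus 1 after quantile normalization. Peaks were stitched to variable length, so a sum of tags moves with the called length, and covered kb and tags per kb are printed beside it. Quantile normalization was taken as the main scaling because earlier results on these files showed a change that followed peak height under median subtraction.

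The 9 genes, the 7 lists and the tests were chosen with earlier results of these data known. Named genes were the 9, the 3 of each list with the smallest p, any list gene past the threshold, and 5 genes most like Klf2. Named regions were those tested and those in all lists of one genotype only. Regions named beyond 1 kb of a gene and the sums over the 18 inner Cd44 regions were chosen after their values were seen. The fits were tested on simulated data with the means and spreads of the real features, where features with higher values were changed. The RNA fit recovered 32 of 100 genes changed by 1 on the log2 scale and 78 of 100 changed by 2, with 4 false calls. The ATAC fit recovered 74 and 99 of 100, with 9 false calls. A gene that did not pass in RNA may therefore have changed by such an amount. The simulated noise was independent between features, with no shift shared by a library, so these counts do not cover the dependence on scaling. Features with low values were not changed, so their recovery is not known. Replicate numbers were not used to pair libraries.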

Additional observations from a re-analysis of the deposited data

How the results depend on the processing

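None of the 9 genes passed in RNA under any alternative except library quality weights, which called 3 of them and 9.86% of all genes. Genes called over the whole table, 37 in the reported fit, numbered 6 without the mean-variance trend, 1783 with quality weights, 526 in the authors' deposited table and 1 to 150 with 1 library left out. They split into 6 higher and 31 lower as reported, and into 17 and 16 after quantile normalization. List genes called, 0 of 166 as reported, were 29 with quality weights, where 9.86% of all genes were called. They were 6 in the authors' deposited table, where 5.68% of all genes with an adjusted p pass. Some list genes have no adjusted p there, so the 2 are not directly comparable. With 1 library left out they were 0 to 2, the 2 without cKO replicate 2, where 0.830% of all genes were called. Same-numbered libraries correlated at 0.12, 0.21 and -0.06 in RNA and at -0.02, -0.01 and 0.01 in ATAC-seq, after each group's mean was removed. Differently numbered pairs are not set beside them, so these values cannot show whether the numbers pair the libraries. With the replicate number as a block, 122 genes and 0 of the 9 were called in RNA, beside 37 genes without it. In ATAC-seq 4836 regions were called with the block, beside 4742 without it. S1pr1 was the 1 gene whose RNA change turned sign with 1 library left out (-0.22 to 0.33).

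Regions called, 4742 as reported, were 12050 after median subtraction, 2681 by the highest peak, 833 per kb of peak, 1173 without the trend and 1768 to 4358 with 1 library left out. For the 9 genes the 6 called, all lower, became 11 after median subtraction, in both directions, and 3 as deposited, all lower. They became 1 per kb, which was higher, 0 without the trend, and 1 to 6 with 1 library left out. Widening the flank to 100 kb gave 278 regions, of which 134 were tested and 23 called, beside 14.1% of all regions. Signs reversed, for which the cause was not tested, after median subtraction at the Ccr7 pair (0.25 and 0.45), Klf2 (0.71), Cxcr4 (0.37), the Cd44 start (0.36), the Itga4 start (0.25), Itga4 79259114 (-0.0079) and Itgal (0.44). As deposited they reversed at Ccr7 99148918 (0.16), Klf2 (0.42), Cxcr4 (0.075), the Cd44 start (0.07), Itga4 79259114 (-0.30), Itgb7 102224114 (-0.18) and Itgal (0.15). Per kb of peak they reversed at Ccr7 99141559 (0.23), S1pr1 115711252 (-0.023), Klf2 (0.11), Cxcr4 (0.063), Cd44 102870232 (0.21), Cd44 102894513 (0.038), the Cd44 start (0.35), Itgb1 128690239 (0.063), the Itgb7 start (0.096) and Itgal (0.0009). By the highest peak they reversed at S1pr1 115713868 (-0.0004), Klf2 (0.13) and Cd44 102827772 (0.0077). With 1 library left out, changes crossed 0 at S1pr1 115713868 (-0.053 to 0.051), Klf2 (-0.067 to 0.0088), Itga4 79259114 (-0.26 to 0.38), Itgb1 128690239 (-0.31 to 0.18) and Itgb7 102224114 (-0.096 to 0.42). The other changes of single genes and regions kept their direction under the alternatives run, and over all 466 values of single genes and regions under an alternative a call was lost 36 times and gained 12 times.

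Raw RNA depth is unknown, and 3 libraries a group leave wide intervals for the genes with few normalized counts, such as S1pr1 and Klf2. Absence from a peak list says only that no peak passed the authors' threshold there.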
